A study of Mus musculus with 12 samples.

Results

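Histone genes were followed from the oocyte to the 2-cell embryo in wild-type (WT) mice and in mice with a knockout (KO) of Pabpn1l, whose oocyte-expressed product binds poly(A) tails. The members were all genes of the deposited table whose symbol starts with Hist1h, Hist2h, Hist3h, Hist4h, H1f, H2af or H3f. The rule used names only, not values, and found 36 of 11298 genes. Of these, 25 were replication-dependent (symbol starting with Hist): 2 H1, 3 H2A, 7 H2B, 5 H3 and 8 H4 genes. The other 11 were 3 H1, 6 H2A and 2 H3 genes. The 12 libraries formed 6 groups of 2: WT and Pabpn1l KO oocytes at the germinal vesicle (GV) stage, 1-cell embryos and 2-cell embryos, all on the C57BL/6 background. Each library came from 10 oocytes or embryos that received no treatment, oocytes taken from the animal and embryos grown in KSOM medium, and was made by Smart-seq2, a full-length RNA-seq method primed here with oligo-dT. The ages, the matings, the KO allele and whether KO names the genotype of the mother or of the embryo are not given in the sources used here. The sources also leave unstated whether the 2 libraries of each group are from different animals. The p-values therefore measure only the spread between these libraries, which may be technical.

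Histones package DNA: H2A, H2B, H3 and H4 form the nucleosome core, and H1 linker histones bind the DNA between nucleosomes. Replication-dependent histone genes lie in clusters, are transcribed mainly during DNA synthesis, and give mRNAs that typically end in a stem-loop in place of a poly(A) tail. The other histone genes encode variants, such as H3.3, H2A.Z and the oocyte linker histone H1FOO, whose polyadenylated mRNAs are made outside DNA synthesis too. Fully grown oocytes store histone mRNA, and in mice most maternal mRNA is degraded between meiotic maturation and the 2-cell stage, when the embryonic genome becomes active.

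Values are FPKM, fragments per kilobase of transcript scaled to the mapped fragments of the library, as deposited. No value was below 1 FPKM, called the floor, so a gene at 1 FPKM was at or under it. The deposited embryo columns had been multiplied by a library factor. For 1-cell embryos it was 0.269 and 0.212 (WT) against 0.432 and 0.552 (KO), for 2-cell embryos 0.116 and 0.123 (WT) against 0.130 and 0.121 (KO), and for all oocytes 1. The basis of the factor is not given in the sources used here, so each comparison is also given on FPKM before the factor. Replicates correlated across genes at Pearson's r of 0.971 to 0.993. The targeted gene Pabpn1l had 220.1 and 203.9 FPKM in WT against 7.229 and 4.979 FPKM in KO oocytes, 16.38 and 12.2 against 2.575 and 4.546 in 1-cell embryos, and at most 1.902 in any 2-cell library, where it checks no label.

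Because the cDNA was primed on poly(A), hairpins and poly(A) signals of the histone transcripts are shown first. The annotated transcripts (GENCODE M21, GRCm38) were searched for a hairpin with a perfectly paired 6-base stem beginning with GG and a 4-base loop beginning with TTT, on the transcript strand. It was found in 18 of 25 replication-dependent members and in 1 of 11 other members, H2afx, against 0.311% of 21877 protein-coding genes. These examples are an H1, an H2A, an H2B, an H3 and an H4 gene and H2afx, with the hairpin in capitals between its flanking bases.
Hist1h1c: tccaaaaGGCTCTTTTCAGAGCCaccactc
Hist3h2a: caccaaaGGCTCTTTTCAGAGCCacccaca
Hist3h2ba: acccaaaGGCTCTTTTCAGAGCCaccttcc
Hist2h3c1: ccacaaaGGCTCTTTTCAGAGCCaccacag
Hist1h4c: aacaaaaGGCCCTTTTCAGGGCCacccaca
H2afx: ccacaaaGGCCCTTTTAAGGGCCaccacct
The printed transcripts lie on chromosome 13 (Hist1h1c, Hist1h4c), 11 (Hist3h2a, Hist3h2ba), 3 (Hist2h3c1) and 9 (H2afx). None of these hairpins is at the annotated transcript end. Further bases follow them: 840 (Hist1h1c), 1643 (Hist3h2a), 169 (Hist3h2ba), 1162 or 1167 (Hist2h3c1), 454 (Hist1h4c) and 822 (H2afx). Over all members with a match this distance ran from 3 (Hist1h4m) to 2445 bases (Hist4h4). A poly(A) signal, AATAAA, stood within the last 40 bases of an annotated transcript in 7 of 25 replication-dependent and 8 of 11 other members, against 64.1% of all protein-coding genes, and 6 replication-dependent members had both elements. No hairpin match was present in the annotated transcripts of the 3 replication-dependent genes with the highest levels in these libraries, Hist1h2bc, Hist1h2aa and Hist1h1a. That says only that these letters are not in those annotated transcripts, of 1156, 390 and 741 bases.

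Promoters are shown for 3 genes called in the same comparisons and for a neighbouring pair that parted between WT oocytes and WT 1-cell embryos. H2afj, H2afv and H2afz were the 3 members higher in WT 2-cell than WT 1-cell embryos and the 3 lower in KO than WT 2-cell embryos. Both comparisons use the same WT 2-cell libraries, where H2afj was at 2.141 and 2.715 FPKM, so their calls are not independent. Hist1h2aa and Hist1h2ba, which encode the H2A and H2B variants TH2A and TH2B of testis and oocyte, lie head to head, with 280 bases between their starts. The Hist1h2aa window holds 250 of these bases and stops short of the Hist1h2ba start. From WT oocytes to WT 1-cell embryos Hist1h2aa fell and Hist1h2ba rose on the deposited scale. Before the factor the fall of Hist1h2aa was not called, and the deposited call of Hist1h2ba was lost in some settings. Both genes fell from WT 1-cell to WT 2-cell embryos on both scales. The windows run from 250 bases before to 50 bases after the start (RefSeq, GRCm38.p6, whereas the authors aligned to mm9). Capitals mark matches on either strand to the TATA box (searched as TATAAA), the CCAAT box (searched as CCAAT), the GC box (searched as GGGCGG) and the CRE core (searched as TGACGT). A match on the other strand is marked as its reverse complement, and no matches overlap here.
H2afj (chr6:136807998-136808297, plus strand): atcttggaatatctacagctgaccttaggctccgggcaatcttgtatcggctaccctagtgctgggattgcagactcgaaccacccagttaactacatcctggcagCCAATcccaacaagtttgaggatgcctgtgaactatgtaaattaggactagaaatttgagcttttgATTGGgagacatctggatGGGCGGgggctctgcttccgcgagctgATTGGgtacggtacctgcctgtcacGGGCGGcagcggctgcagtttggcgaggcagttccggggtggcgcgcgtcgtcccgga
H2afv (chr11:6444394-6444693, minus strand): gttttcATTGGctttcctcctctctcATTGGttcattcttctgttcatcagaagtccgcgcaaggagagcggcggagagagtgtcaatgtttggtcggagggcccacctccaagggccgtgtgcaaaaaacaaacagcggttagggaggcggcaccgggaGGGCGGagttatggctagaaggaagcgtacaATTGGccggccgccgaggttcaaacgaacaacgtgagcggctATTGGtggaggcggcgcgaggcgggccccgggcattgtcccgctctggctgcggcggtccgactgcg
H2afz (chr3:137864237-137864536, plus strand): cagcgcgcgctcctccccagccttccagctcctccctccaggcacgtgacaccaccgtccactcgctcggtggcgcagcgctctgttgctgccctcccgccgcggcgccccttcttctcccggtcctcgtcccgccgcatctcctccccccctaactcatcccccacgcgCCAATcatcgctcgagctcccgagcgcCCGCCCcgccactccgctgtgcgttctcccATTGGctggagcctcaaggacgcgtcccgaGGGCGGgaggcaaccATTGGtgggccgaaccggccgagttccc
Hist1h2aa (chr13:23934187-23934486, plus strand): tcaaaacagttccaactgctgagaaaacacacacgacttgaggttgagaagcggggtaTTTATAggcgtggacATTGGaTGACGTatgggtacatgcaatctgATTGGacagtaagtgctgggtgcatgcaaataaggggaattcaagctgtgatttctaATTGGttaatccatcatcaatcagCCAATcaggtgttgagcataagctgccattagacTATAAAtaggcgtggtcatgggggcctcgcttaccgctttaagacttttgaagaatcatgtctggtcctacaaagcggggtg
H2afj, H2afv and H2afz hold 3, 4 and 3 CCAAT matches and Hist1h2aa holds 4, whereas 3.37% of all 32851 windows of this length hold 3 or more. Of the 31 members with a window, 12 hold 3 or more. CCAAT was present in 17 of 21 replication-dependent and 7 of 10 other windows (37.4% of all windows), TATAAA in 10 and 1 (13.6%), TGACGT in 8 and 0 (7.51%) and GGGCGG in 8 and 7 (35.7%). The match is to letters and does not show a bound factor. H2afx, Hist1h2bc, Hist1h3a, Hist1h3f and Hist2h4 were not matched to a window.

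The histone mRNA captured in these libraries came mostly from a few variant genes. As priming on poly(A) can miss mRNAs without a tail, the values do not give the share of replication-dependent genes in all histone mRNA. Summed over the 36 members, WT oocytes held 5553 ± 165 FPKM (SD, n = 2 for this and all other group means), of which the 25 replication-dependent members gave 423 ± 28.4 and the other 11 gave 5130 ± 193. H1foo alone made up 64.5% and 59.1% of the summed histone FPKM in the WT oocyte libraries, and ranked 4 and 9 among all 11298 genes. H3f3a, H3f3b and Hist1h2bc followed it. Most replication-dependent genes were low: 14 of 25 never passed 5 FPKM in any library, and 20 of 25 never passed 10 FPKM, against 2 and 3 of the 11 other members. Members at the floor in both libraries of a group numbered 2 in WT and 2 in KO oocytes, 18 (WT) and 10 (KO) at the 1-cell stage, and 25 (WT) and 22 (KO) at the 2-cell stage. Over all genes the floor held 5.65% and 6.13%, 39.6% and 23.4%, and 43.8% and 52.5%.

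**Figure D1:**
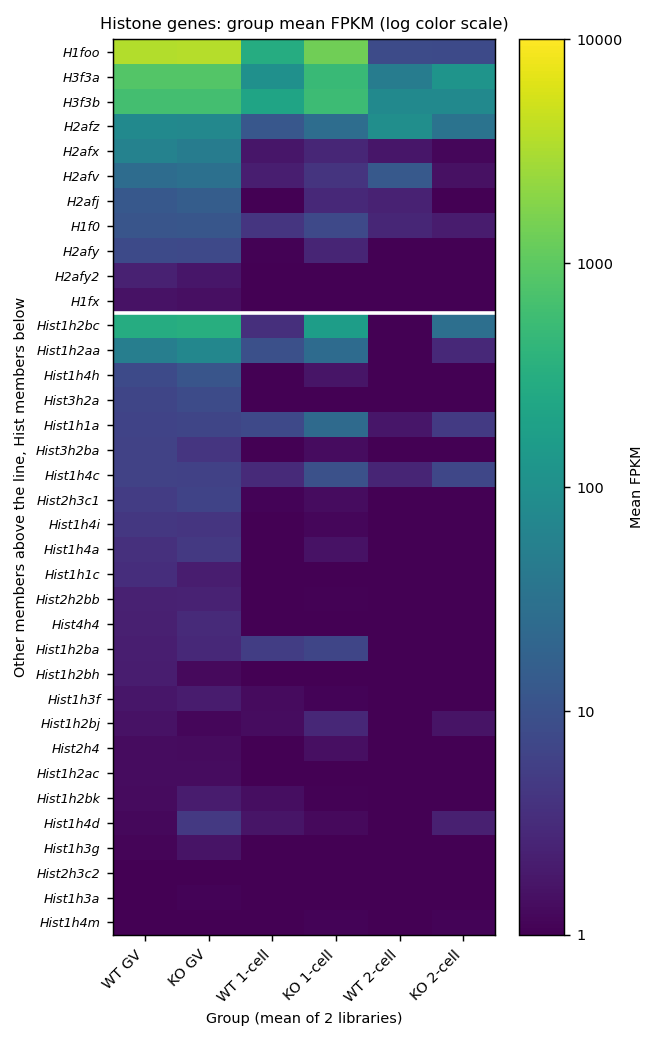
Group mean FPKM of the 36 histone genes (log color scale, each cell the mean of 2 libraries), with variant genes above the white line and replication-dependent genes below it. H1foo, H3f3a, H3f3b and Hist1h2bc stand out in oocytes, and 25 members are at the floor in both WT 2-cell libraries.

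Several members had values that another member shared exactly. Hist1h4a and Hist1h4d had the same value, 3.567 and 5.8 FPKM, in the KO oocyte libraries. Yet the annotated Hist1h4d shared 0 of its 1039 stretches of 100 bases with any other protein-coding gene. Hist1h2bj and Hist1h2bk shared 1.273 FPKM in a WT oocyte library and 1.061 FPKM in a WT 1-cell library. Among annotated protein-coding transcripts, 19 of 25 replication-dependent members and 1 of 11 others shared at least 1 stretch of 100 bases with another gene. Members that share stretches could take each other's reads. For Hist1h2bc 25.3% of such stretches were shared with 14 other H2B genes, so its level is uncertain between copies. H1foo, H3f3a, H3f3b, H2afz, H2afv, Hist1h2aa and Hist1h1a shared none with another protein-coding gene. Pseudogenes and other noncoding transcripts were not searched, so copies of these genes among them are not counted.

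The genes that made up the captured histone mRNA changed from the GV oocyte to the 2-cell embryo. No stage between the GV oocyte and the 1-cell embryo was sampled, so meiotic maturation and fertilization cannot be told apart. As a share of all FPKM of a library, which the factor leaves alone apart from the floor, histone genes held 0.944 ± 0.0509% in WT and 0.953 ± 0.0487% in KO oocytes. The share was 0.625 ± 0.04% in WT and 1.05 ± 0.0637% in KO 1-cell embryos, and 0.498 ± 0.0475% and 0.502 ± 0.0283% in 2-cell embryos. At the 1-cell stage both KO libraries, at 1.01% and 1.10%, lay above both WT libraries, at 0.597% and 0.653%, whereas WT and KO ranges met at the other stages. The exact two-sided permutation test gave p = 0.667, 0.333 and 1 for GV, 1-cell and 2-cell, and 0.333 is the smallest p that 2 against 2 libraries allow. Replication-dependent members alone held 0.0711% in WT and 0.0777% in KO oocytes, 0.0332% (WT) and 0.0958% (KO) at the 1-cell stage, and 0.00977% (WT) and 0.0839% (KO) at the 2-cell stage. Most of the KO embryo shares was 1 gene, Hist1h2bc. It held 0.0676% of 0.105% and 0.0619% of 0.0867% in the KO 1-cell libraries. In the KO 2-cell libraries it held 0.0425% of 0.0748% and 0.0584% of 0.0930%. Values at the floor were left out, so the WT 2-cell share rests on 3 and 2 members.

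**Figure D2:**
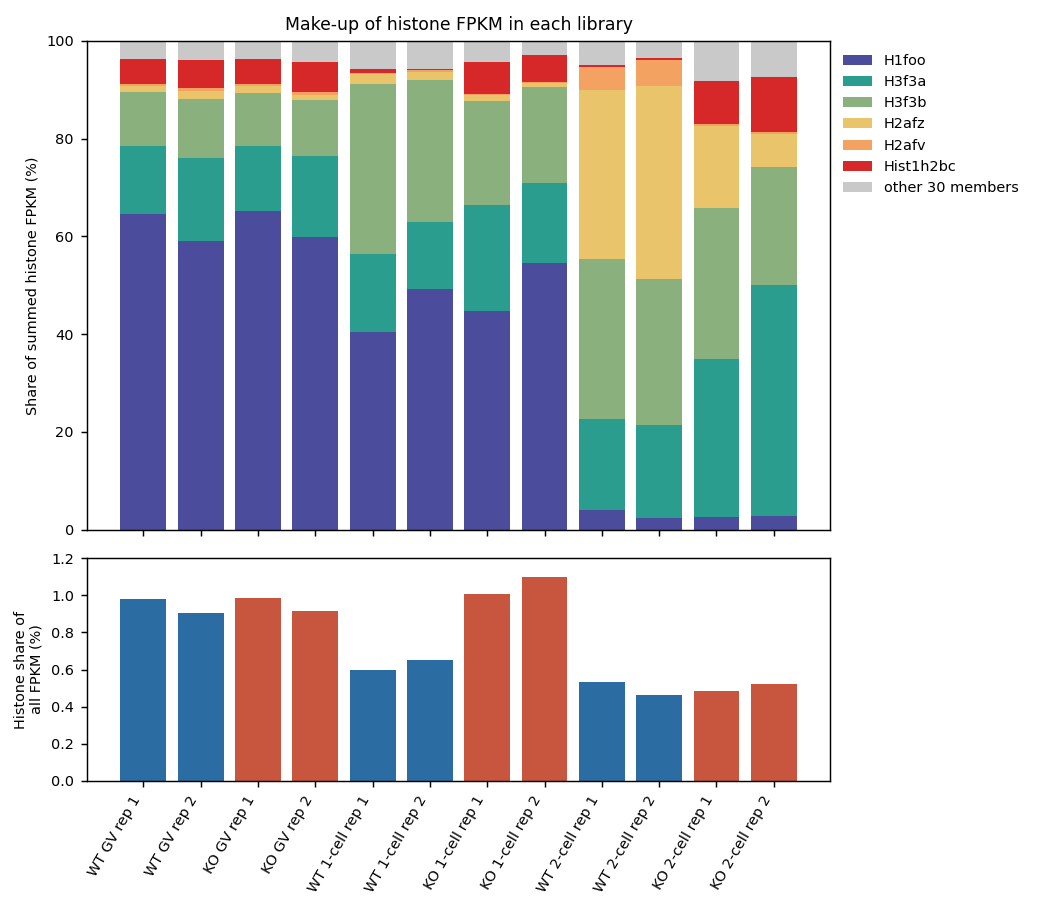
Upper panel: share of the summed histone FPKM (%) held by 6 genes and by the other 30 members together in each of the 12 libraries. Lower panel: histone share of all FPKM (%), blue WT and red KO; H2afz makes up 34.4% and 39.5% of the WT 2-cell bars and 16.7% and 6.70% of the KO 2-cell bars.

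Within WT, the question was how histone transcripts change after fertilization. From the GV oocyte to the 1-cell embryo most histone genes fell on the deposited scale, as did most of the transcriptome. On the scale before the factor the genes parted: H1foo, H2afx, H3f3a and Hist1h2bc still fell, whereas H3f3b, Hist1h1a and Hist1h2ba rose. Differences are of log2(FPKM + 1), tested with limma over all 11298 genes and called at a Benjamini-Hochberg adjusted p under 0.05. Of the 36 members 23 were called lower (12 replication-dependent and all 11 others; 85.8% of all genes) and 1 higher (0.0354% of all genes). The median difference was −0.94 over the members and −1.49 over all genes. Before the factor 10 members were called lower (27.9% of all genes) and 5 higher (12.3%), with medians of 0 for members and for all genes. There the values of these libraries were raised to their highest floor, 4.709 FPKM. Genes under it differ by 0, so these medians do not measure a net change. With quantile normalization 10 were lower (23.8%) and 12 higher (33.4%). In pools of 10, fewer embryos with a transcript and less of it per embryo cannot be told apart.

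The oocyte linker histone gene H1foo measured 3654 and 3212 FPKM in WT oocytes and 294.9 and 302.1 FPKM in WT 1-cell embryos. Its mean fell to 8.70% of the oocyte mean (log2 difference −3.52 ± 0.28 SE, limma adjusted p = 2.38e-06), and also fell before the factor (−1.46, adjusted p = 0.00146). H2afx, whose product is phosphorylated at DNA breaks, went from 64.12 and 55.29 FPKM to 1.28 and 2.263 FPKM (−4.47 ± 0.21, adjusted p = 1.55e-07, and −2.89 before the factor, adjusted p = 1.64e-05). All oocyte libraries lay above all 1-cell libraries for both genes.

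Hist1h2bc, an H2B gene, had the largest fall of the members described singly. It measured 287.2 and 313.8 FPKM in WT oocytes and 5.035 and 1.974 FPKM in WT 1-cell embryos. The mean fell to 1.17% (log2 difference −6.15 ± 0.29, limma adjusted p = 1.63e-07, and −4.40 before the factor, adjusted p = 6.08e-07). Hist1h2aa fell from 49.68 and 51.94 FPKM to 9.897 and 9.396 FPKM (−2.28 ± 0.16, adjusted p = 1.15e-06), a change that was not called before the factor (−0.33, adjusted p = 0.306) and turned to 0.15 with quantile normalization (adjusted p = 0.661).

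The pair of genes for H3.3, the H3 variant deposited outside DNA replication, fell to different degrees. H3f3a went from 796.7 and 912.6 FPKM to 116.9 and 83.62 FPKM (log2 difference −3.10 ± 0.24, limma adjusted p = 2.25e-06, and −1.04 before the factor, adjusted p = 0.00546). H3f3b went from 623.6 and 657.1 FPKM to 253.9 and 178.7 FPKM (−1.58 ± 0.20, adjusted p = 5.25e-05). Before the factor its direction turned (0.48, adjusted p = 0.0436). In every WT oocyte library H3f3a was the higher of the pair, and in every WT 1-cell library H3f3b was.

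H2afz and H2afv encode the H2A.Z proteins, variants found around transcription starts. H2afz went from 65.4 and 94.52 FPKM to 14.14 and 9.991 FPKM (log2 difference −2.63 ± 0.36, limma adjusted p = 8.26e-05) and was not called before the factor (−0.65, adjusted p = 0.129). H2afv went from 25.57 and 27.18 FPKM to 2.605 and 1.773 FPKM (−3.11 ± 0.16, adjusted p = 1.99e-07, and −1.45 before the factor, adjusted p = 2.55e-05). WT oocytes lay above WT 1-cell embryos in all libraries of both genes. Members that went against the fall were Hist1h2ba and Hist1h1a. Hist1h2ba measured 2.921 and 1.353 FPKM in WT oocytes and 6.058 and 4.488 FPKM in WT 1-cell embryos (1.04 ± 0.30, adjusted p = 0.0091; 2.00 before the factor, adjusted p = 9.74e-07). The deposited call of Hist1h2ba was lost with the libraries of the contrast fitted alone and without WT GV replicate 2 or WT 1-cell replicate 1, where 0 members were called higher. Hist1h1a, the gene of linker histone H1.1, measured 6.784 and 5.985 FPKM, then 8.419 and 6.789 FPKM, with no call as deposited (0.22 ± 0.25, adjusted p = 0.447), and a rise before the factor (2.15, adjusted p = 0.000138). The other members called higher before the factor were H3f3b, Hist1h2bk (0.25) and Hist1h3f (0.15), the last pair never above 3.107 FPKM as deposited in any library.

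**Figure D3:**
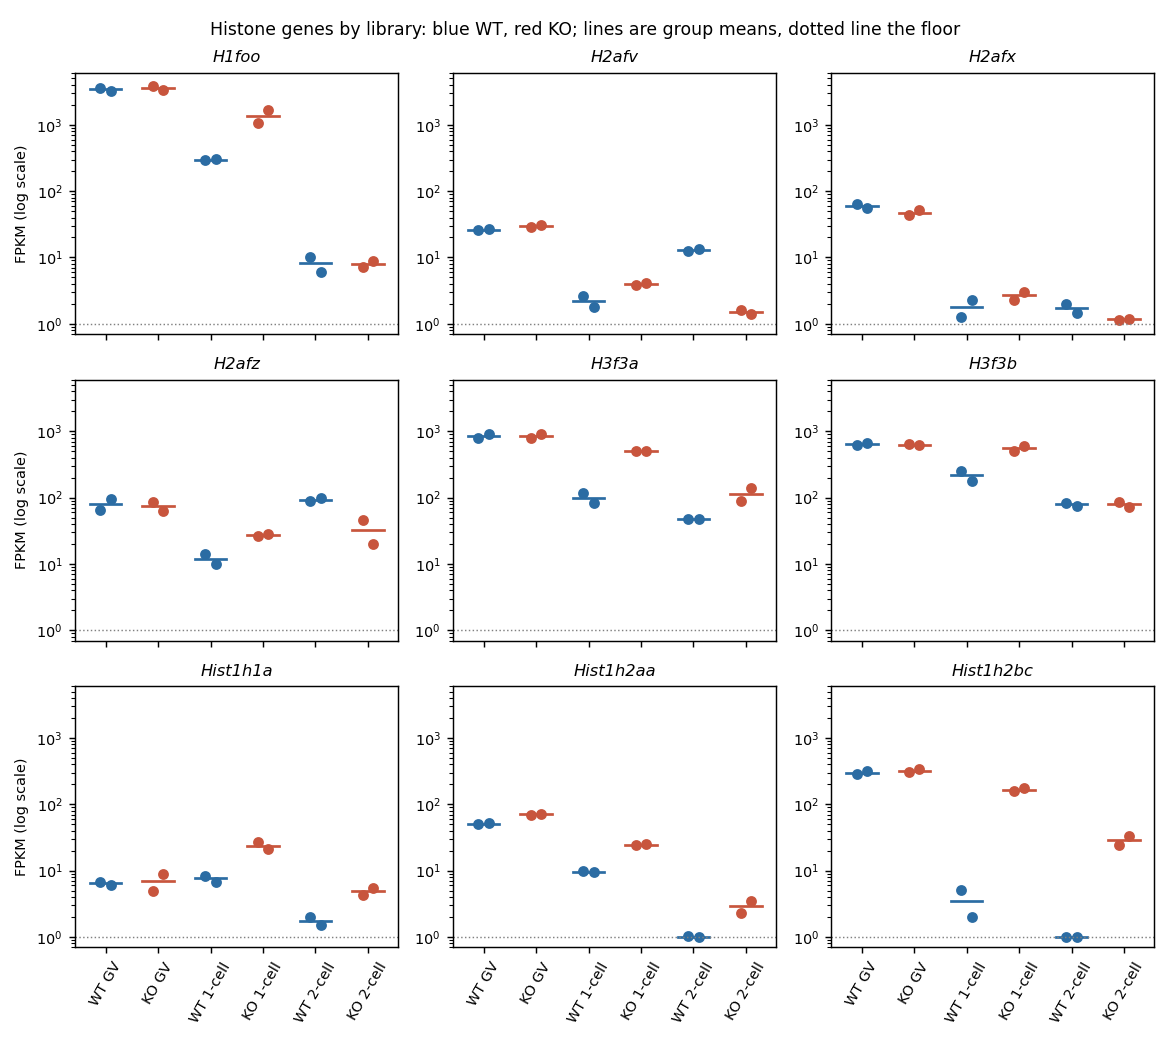
FPKM (log scale) of the 9 members described singly in each library, points being libraries, lines group means and the dotted line the floor of 1 FPKM; blue is WT and red KO. H2afz and H2afv are higher in WT 2-cell than in WT 1-cell embryos, and Hist1h2bc is at the floor in WT 2-cell but at 24.35 and 33.62 FPKM in KO 2-cell embryos.

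From the 1-cell to the 2-cell stage in WT, H2afz, H2afv and H2afj rose, while H1foo, both H3.3 genes and 4 of 25 replication-dependent genes fell. Of the 36 members 3 were called higher (9.45% of all genes) and 7 lower (29% of all genes), and 17 were at the floor in all 4 libraries. Before the factor 3 were higher (21%) and 5 lower (14.9%), and with quantile normalization 3 were higher (20%) and 9 lower (26.3%). H2afz went from 14.14 and 9.991 FPKM to 87.86 and 99.36 FPKM, a 7.76-fold rise of the mean (log2 difference 2.87 ± 0.36, limma adjusted p = 0.000205, and 3.95 before the factor, adjusted p = 0.000161). H2afv went from 2.605 and 1.773 FPKM to 12.46 and 13.48 FPKM, a 5.92-fold rise (2.14 ± 0.16, adjusted p = 1.13e-05, and 3.44 before the factor, adjusted p = 1.51e-07). H2afj, an H2A variant gene, was at the floor in the WT 1-cell libraries and at 2.141 and 2.715 FPKM in WT 2-cell embryos (0.77 ± 0.14, adjusted p = 0.00153, and 1.14 before the factor, adjusted p = 9e-05). None of these 3 is replication-dependent, and WT 2-cell embryos were above WT 1-cell embryos in every library.

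The 7 members that fell were H1foo, H3f3a, H3f3b, Hist1h1a, Hist1h2aa, Hist1h2ba and Hist1h2bc. H1foo fell to 10.3 and 6.124 FPKM, or 2.75% of the WT 1-cell mean and 0.239% of the WT oocyte mean (log2 difference −5.06 ± 0.28, limma adjusted p = 2.75e-06, and −4.21 before the factor, adjusted p = 5.08e-05). Hist1h2aa fell to 1.02 and 1 FPKM (−2.41 ± 0.16, adjusted p = 6.64e-06) and Hist1h2ba to the floor in both libraries (−1.64 ± 0.30, adjusted p = 0.00196). Hist1h1a fell to 2.016 and 1.499 FPKM (−1.64 ± 0.25, adjusted p = 0.000671). All 3 were also called lower before the factor.

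H3f3b fell to 83.47 and 75.21 FPKM (log2 difference −1.42 ± 0.20, limma adjusted p = 0.000444, and −0.42 before the factor, adjusted p = 0.0191). H3f3a fell to 47.76 and 47.73 FPKM as deposited (−1.03 ± 0.24, adjusted p = 0.00766). Before the factor H3f3a measured 434 and 393.8 FPKM in WT 1-cell and 411.1 and 388.9 FPKM in WT 2-cell embryos, which overlap (−0.05, adjusted p = 1), and its call was lost without WT 1-cell replicate 1 (−0.80, adjusted p = 0.0584) or WT 2-cell replicate 2 (−1.03, adjusted p = 0.0512). With quantile normalization H3f3a turned to 0.15 (adjusted p = 0.551) and H3f3b was not called (−0.21, adjusted p = 0.275). Hist1h2bc went from 5.035 and 1.974 FPKM to the floor (−1.08 ± 0.29, adjusted p = 0.0161). It was not called before the factor (−0.57, adjusted p = 0.234), nor without WT 1-cell replicate 1 (−0.57, adjusted p = 0.0806), WT 2-cell replicate 1 (−1.08, adjusted p = 0.0897) or WT 2-cell replicate 2 (−1.08, adjusted p = 0.0917).

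In GV oocytes, where the question was whether stored histone transcripts already differ without Pabpn1l, the KO and WT levels of the 4 most abundant members lay close together. H1foo measured 3892 and 3303 FPKM in KO against 3654 and 3212 in WT, H3f3a 799.1 and 921.4 against 796.7 and 912.6, H3f3b 644.5 and 623.8 against 623.6 and 657.1, and Hist1h2bc 307.6 and 337.3 against 287.2 and 313.8 FPKM. The groups overlap for all 4 genes, with log2 differences between −0.01 and 0.10. Hist1h2aa was at 67.92 and 72.47 FPKM in KO and 49.68 and 51.94 in WT, which do not overlap, and was not called (0.46 ± 0.16, limma adjusted p = 0.334). Without overlap or call were also H2afx (43.24 and 51.24 against 64.12 and 55.29 FPKM) and H2afv (28.69 and 30.95 against 25.57 and 27.18 FPKM). Hist1h4d had the largest difference, at 3.567 and 5.8 against 1 and 1.467 FPKM, and was not called (1.33 ± 0.32, adjusted p = 0.0914). At an unadjusted p under 0.05, 5 members were higher and 3 lower. Of the 36 members 1 was called higher (0.584% of all genes) and 1 lower (1.04%): the H4 gene Hist4h4, at 2.924 and 3.122 against 2.052 and 2.4 FPKM (0.32 ± 0.06, adjusted p = 0.041), and the gene of linker histone H1.2, Hist1h1c, at 1.98 and 2.232 against 3.601 and 3.173 FPKM (−0.50 ± 0.06, adjusted p = 0.00717). Neither call was made with the 4 oocyte libraries fitted alone, before the factor (0.0177% of all genes called in each direction) or with quantile normalization (0.00885% in each direction). As the oocyte factor is 1, the differences before the factor were the same, 0.32 and −0.50, with larger SE (0.149 and 0.150) in that fit. The embryo libraries kept unequal floors there, and these entered the spread. For Hist1h4m, at the floor in all 4 oocyte libraries, the SE went from 0.054 to 0.143. The calls lost before the factor therefore do not reflect a change in the oocyte values.

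In 1-cell embryos, KO embryos had higher FPKM of H1foo, H3f3a and Hist1h2bc than WT embryos on both scales. As the cDNA was primed on poly(A), differences in mRNA amount and in poly(A) tails cannot be told apart in this or any other comparison. A further 9 members were called higher on the deposited scale but not before the factor. On the deposited scale 12 of 36 members were called higher (52.7% of all genes) and 0 lower (0.0974% of all genes). At an unadjusted p under 0.05, 13 were higher and 0 lower. The median difference was 0.25 over the members and 0.57 over all genes, and 10 members were at the floor in all 4 libraries. The 5 replication-dependent genes called were Hist1h1a, Hist1h2aa, Hist1h2bc, Hist1h2bj and Hist1h4h, and the 7 others were H1foo, H2afj, H2afv, H2afy, H2afz, H3f3a and H3f3b. Before the factor 3 members were called higher (8.05% of all genes), namely H1foo, H3f3a and Hist1h2bc, and 2 lower (2.89%), Hist1h2ba (−0.58, adjusted p = 0.0179) and Hist1h3f (−0.15, adjusted p = 0.0408). With quantile normalization 4 members were higher (12.8%) and 11 lower (16.4%). Oocyte markers moved with these values: summed over the 13 of 15 markers in the table they were at 5914 and 4213 FPKM in WT and 11540 and 13150 FPKM in KO 1-cell embryos, with 1 of 13, Figla, at the floor in WT. Their part in the histone results was not tested.

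Hist1h2bc had the largest difference among the members. It measured 157.7 and 175 FPKM in KO against 5.035 and 1.974 FPKM in WT 1-cell embryos, 47.5 times as much (log2 difference 5.30 ± 0.29, limma adjusted p = 1.15e-05). Before the factor the values were 365.1 and 317.3 against 18.69 and 9.296 FPKM (4.58, adjusted p = 4.17e-06). KO 1-cell embryos held 51.6% of the KO oocyte mean of this gene, whereas WT 1-cell embryos held 1.17% of the WT oocyte mean. The KO effect was larger than in oocytes by 5.20 ± 0.42 on the log2 scale (adjusted p = 0.000242, and 4.48 before the factor, adjusted p = 0.000213). Over the 36 members the KO effect was called higher at the 1-cell than at the GV stage for 11 (38.7% of all genes) and lower for 2 (0.859%). These were 1 (4.04%) and 0 (0.823%) before the factor, and 2 (5.81%) and 4 (2.86%) with quantile normalization.

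H1foo measured 1053 and 1691 FPKM in KO against 294.9 and 302.1 FPKM in WT 1-cell embryos, 4.60 times as much (log2 difference 2.16 ± 0.28, limma adjusted p = 0.000464, and 1.13 before the factor, adjusted p = 0.0243). H3f3a measured 509.3 and 510.5 FPKM in KO against 116.9 and 83.62 FPKM in WT, 5.09 times as much (2.36 ± 0.24, adjusted p = 0.00015, and 1.34 before the factor, adjusted p = 0.00509). KO libraries were above WT libraries without overlap for both genes. With quantile normalization H1foo was not called (0.84, adjusted p = 0.105). With the 4 libraries of 1-cell embryos fitted alone neither was called (H1foo adjusted p = 0.095, H3f3a adjusted p = 0.0515).

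H3f3b, which encodes the same H3.3 protein as H3f3a, measured 500.1 and 606.5 FPKM in KO against 253.9 and 178.7 FPKM in WT (log2 difference 1.37 ± 0.20, limma adjusted p = 0.000881). Before the factor its difference was 0.34 and not called (adjusted p = 0.312). Hist1h2aa measured 24.38 and 24.98 FPKM in KO against 9.897 and 9.396 FPKM in WT (1.27 ± 0.16, adjusted p = 0.000412), and 0.32 before the factor (adjusted p = 0.562). Hist1h1a measured 26.56 and 21.1 FPKM in KO against 8.419 and 6.789 FPKM in WT (1.53 ± 0.25, adjusted p = 0.00146), and 0.60 before the factor (adjusted p = 0.2995). The groups of these 3 genes do not overlap as deposited, nor before the factor, where H3f3b was at 1157 and 1099 against 942.7 and 841.7 FPKM, Hist1h2aa at 56.42 and 45.27 against 36.74 and 44.25 FPKM and Hist1h1a at 61.46 and 38.25 against 31.26 and 31.97 FPKM. With the 1-cell libraries fitted alone, H3f3b (adjusted p = 0.0986) and Hist1h1a (adjusted p = 0.0592) were not called.

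Of the H2A variants 4 of 6 were called higher in KO 1-cell embryos on the deposited scale, where 52.7% of all genes were. H2afj was at 2.9 and 2.836 FPKM in KO and at the floor in WT (log2 difference 0.95 ± 0.14, limma adjusted p = 0.000768), and H2afy at 2.392 and 2.834 against 1.14 and 1 FPKM (0.80 ± 0.11, adjusted p = 0.000539). Neither was called before the factor (0.27, adjusted p = 0.471, and 0.15, adjusted p = 0.252). H2afz was at 26.43 and 28.31 FPKM in KO and 14.14 and 9.991 in WT (log2 difference 1.14 ± 0.36, limma adjusted p = 0.0248), and H2afv at 3.826 and 4.066 against 2.605 and 1.773 FPKM (0.65 ± 0.16, adjusted p = 0.00812). Before the factor they differed by 0.17 (adjusted p = 1) and −0.14 (adjusted p = 0.975), so the direction of H2afv turned. Without WT 1-cell replicate 2 neither was called (H2afz 0.91, adjusted p = 0.151, H2afv 0.46, adjusted p = 0.0655). H2afz was also lost without KO 1-cell replicate 1 (1.18, adjusted p = 0.062) or 2 (1.09, adjusted p = 0.114). H2afx was at 2.299 and 3.049 FPKM in KO and 1.28 and 2.263 in WT and was not called (0.42 ± 0.21, adjusted p = 0.13). With the 1-cell libraries fitted alone H2afz (adjusted p = 0.083) and H2afv (adjusted p = 0.157) were not called. Of the H4 genes, Hist1h4c showed how far replicates can part, at 16.09 and 3.816 FPKM in KO and 3.697 and 2.378 FPKM in WT (1.19 ± 0.55, adjusted p = 0.104).

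**Figure D4:**
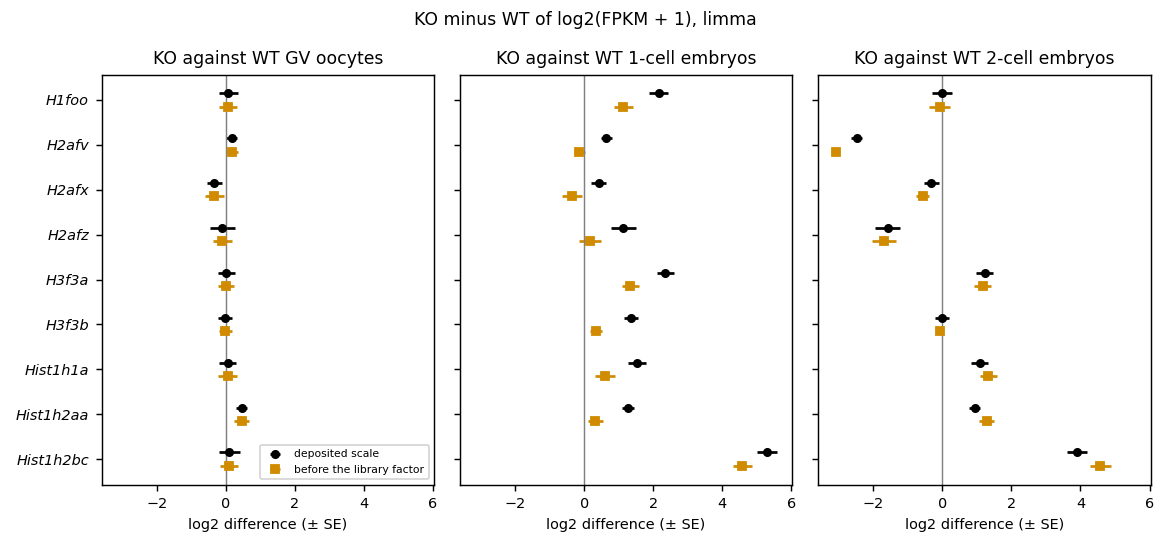
KO minus WT log2(FPKM + 1) of the 9 members described singly, with SE from limma, in oocytes, 1-cell and 2-cell embryos, on the deposited scale (black circles) and before the library factor (orange squares). The scales part most at the 1-cell stage, where H3f3b is at 1.37 and 0.34, and at the 2-cell stage H2afv and H2afz lie below 0 and H3f3a, Hist1h1a, Hist1h2aa and Hist1h2bc above 0 on both.

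In KO 2-cell embryos 7 of 36 histone genes were called in either direction (19.4%), a share near that of all genes (19.6%). Hist1h2bc, Hist1h2aa, Hist1h1a and H3f3a were higher in KO, and the 3 variant genes that rise in WT, H2afz, H2afv and H2afj, were lower. That rise and this difference share the WT 2-cell libraries and are not independent. Of the 36 members 4 were called higher (7.56% of all genes) and 3 lower (12% of all genes), and 21 were at the floor in all 4 libraries. The median difference was 0 over the members and over all genes. Before the factor 5 were called higher (11.1%) and 3 lower (18.7%), and these include the 7 called on the deposited scale. With quantile normalization 9 were higher (23.9%) and 4 lower (19.2%). The oocyte markers summed to 1297 and 1211 FPKM in WT and 2211 and 2361 FPKM in KO, with Mos at the floor in all 4 libraries and Figla in 3. Much of the KO sums was Oosp1 (887.7 and 940.3 FPKM) and Btg4 (650.3 and 611.7 FPKM). Dppa3 of this list went the other way, at 341 and 373.1 FPKM in WT and 236 and 243.4 FPKM in KO. Tcl1 overlapped, at 256.9 and 196.9 FPKM in WT and 187.3 and 282.1 FPKM in KO. Markers of the 2-cell stage, 10 of 14 in the table, summed to 82.86 and 80.6 FPKM in WT and 21.45 and 15.85 FPKM in KO, with 1, 0, 4 and 6 of them at the floor. Of these sums Sp110 gave 59.13 and 55.59 FPKM in WT and 8.009 and 5.418 FPKM in KO. Sp110 was already at 348.1 and 354.9 FPKM in WT oocytes and at 59.66 and 52.89 FPKM in WT 1-cell embryos. Its part of the sums therefore does not mark a rise at the 2-cell stage. D5Ertd577e of the same list went the other way, at 1 and 1.009 FPKM in WT and 1.928 and 2.021 FPKM in KO. The part of either list in the histone results was not tested.

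H2afv measured 1.593 and 1.399 FPKM in KO against 12.46 and 13.48 FPKM in WT 2-cell embryos, 11.5% of the WT mean (log2 difference −2.48 ± 0.16, limma adjusted p = 9.59e-06, and −3.09 before the factor, adjusted p = 2.72e-07). H2afj was at the floor in both KO libraries and at 2.141 and 2.715 FPKM in WT (−0.77 ± 0.14, adjusted p = 0.00361, and −1.14 before the factor, adjusted p = 0.000114). H2afz measured 46.03 and 20.1 FPKM in KO against 87.86 and 99.36 FPKM in WT, 35.3% of the WT mean (−1.58 ± 0.36, adjusted p = 0.0129, and −1.69 before the factor, adjusted p = 0.0109). Both KO libraries were below both WT libraries for all 3 genes, and the KO libraries of H2afz lay far apart. H2afz was not called without WT 2-cell replicate 1 (−1.67, adjusted p = 0.0747) or 2 (−1.50, adjusted p = 0.116), without KO 2-cell replicate 2 (−1.01, adjusted p = 0.0738), or with the 2-cell libraries fitted alone (adjusted p = 0.18).

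From the 1-cell to the 2-cell stage, H2afz thus went from 12.1 ± 2.93 to 93.6 ± 8.13 FPKM in WT, whereas the KO values were 27.4 ± 1.33 and 33.1 ± 18.3 FPKM. The KO effect on H2afz was lower at the 2-cell than at the 1-cell stage (difference of log2 differences −2.72 ± 0.51, limma adjusted p = 0.00375, and −1.86 before the factor, adjusted p = 0.041). For H2afv the same difference was −3.13 ± 0.22 (adjusted p = 3.34e-05, and −3.03 before the factor, adjusted p = 3.05e-06). Across the 36 members the KO effect of the 2-cell stage was called lower than that of the 1-cell stage for 8 (35.7% of all genes) and higher for 0 (0.239%; 0 also at an unadjusted p under 0.05), and before the factor for 3 lower (15.8%) and 2 higher (5.91%). With quantile normalization 3 were lower (19.6%) and 17 higher (31.4%).

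Hist1h2bc measured 24.35 and 33.62 FPKM in KO 2-cell embryos and 1 FPKM, the floor, in each WT library (log2 difference 3.89 ± 0.29, limma adjusted p = 2.88e-05, and 4.57 before the factor, adjusted p = 4.83e-05). Against the floor of 1 FPKM the KO mean was at least 29.0-fold higher. Hist1h2aa measured 2.293 and 3.485 FPKM in KO against 1.02 and 1 FPKM in WT (0.94 ± 0.16, adjusted p = 0.00304, and 1.28 before the factor, adjusted p = 0.0042). Its neighbour Hist1h2ba was at the floor in all 4 libraries. Hist1h1a measured 4.256 and 5.416 FPKM in KO against 2.016 and 1.499 FPKM in WT (1.08 ± 0.25, adjusted p = 0.0147, and 1.33 before the factor, adjusted p = 0.00742). KO was above WT in every library of these genes other than Hist1h2ba. The Hist1h1a call was lost without WT 2-cell replicate 1 (1.22, adjusted p = 0.0528) or 2 (0.95, adjusted p = 0.13) and without KO 2-cell replicate 2 (0.94, adjusted p = 0.115).

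H3f3a measured 89.23 and 141.8 FPKM in KO against 47.76 and 47.73 FPKM in WT 2-cell embryos, 2.42 times as much (log2 difference 1.22 ± 0.24, limma adjusted p = 0.00678, and 1.16 before the factor, adjusted p = 0.0123). It was not called without WT 2-cell replicate 1 (1.22, adjusted p = 0.0502) or 2 (1.22, adjusted p = 0.0583). H3f3b measured 85.63 and 72.31 FPKM in KO and 83.47 and 75.21 in WT, which overlap (−0.01 ± 0.20, adjusted p = 1). H1foo, at 7.085 and 8.761 FPKM in KO and 10.3 and 6.124 in WT, overlapped as well (−0.01 ± 0.28, adjusted p = 1). H2afx was at 1.147 and 1.173 against 1.997 and 1.436 FPKM (−0.32 ± 0.21, adjusted p = 0.44). With the 2-cell libraries fitted alone, calls stayed for Hist1h2bc and H2afv among the members described singly, and were lost for H3f3a (adjusted p = 0.116), Hist1h1a (adjusted p = 0.0707) and Hist1h2aa (adjusted p = 0.112).

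Ratios between genes of the same library do not depend on the factor where both are above the floor. H3f3a over H3f3b was 1.28 and 1.39 in WT and 1.24 and 1.48 in KO oocytes. It was 0.46 and 0.468 in WT but 1.02 and 0.842 in KO 1-cell embryos, and 0.572 and 0.635 in WT but 1.04 and 1.96 in KO 2-cell embryos. KO lay above WT without overlap at both embryo stages and overlapped with it in oocytes (exact two-sided permutation p = 1, 0.333 and 0.333 for GV, 1-cell and 2-cell, 0.333 being the smallest that 2 against 2 allow). Hist1h2bc over H1foo was 0.0786 and 0.0977 in WT and 0.079 and 0.102 in KO oocytes, 0.0171 and 0.00653 against 0.15 and 0.103 in 1-cell embryos, and at most 0.0971 and 0.163 against 3.44 and 3.84 in 2-cell embryos. H2afz over H3f3b was 0.0557 and 0.0559 in WT and 0.0528 and 0.0467 in KO 1-cell embryos, and 1.05 and 1.32 against 0.538 and 0.278 in 2-cell embryos.

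**Figure D5:**
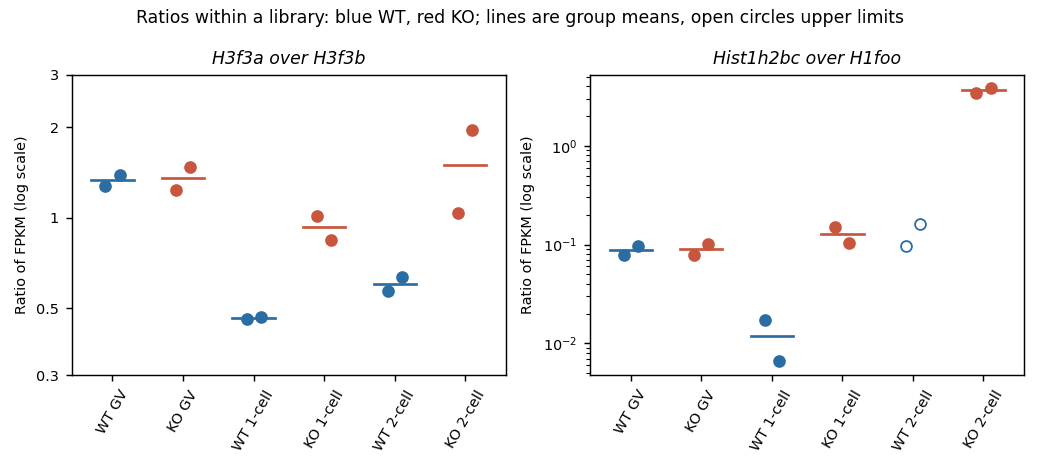
FPKM ratios within each library (log scales), H3f3a over H3f3b on the left and Hist1h2bc over H1foo on the right; points are libraries, lines group means, blue WT and red KO. Open circles are upper limits, because Hist1h2bc was at the floor in both WT 2-cell libraries, and the KO 2-cell ratios of 3.44 and 3.84 lie above all others.

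Genes that act on histone mRNA or histone proteins were counted from lists of 24 genes for histone mRNA processing and decay (24 in the table) and 30 for histone chaperones and deposition (29 in the table). In KO oocytes 0 of either list were called (limma; 0 also before the factor and with quantile normalization), and at an unadjusted p under 0.05 there were 0 and 2, both lower. In KO 1-cell embryos 17 of 24 and 20 of 29 were higher (52.7% of all genes) and 0 lower (0 also at an unadjusted p under 0.05). Before the factor 2 and 2 were higher (8.05% of all genes) and 1 and 0 lower (2.89%). In KO 2-cell embryos 1 of 24 was higher and 6 lower, and 3 of 29 were higher and 6 lower, against 7.56% higher and 12% lower of all genes. The lists' median log2 differences at that stage were 0 and −0.04, against 0 for all genes.

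Of the processing list in 2-cell embryos, Ccne1, the cyclin E1 gene, whose kinase phosphorylates the histone gene activator NPAT, measured 3.512 and 1.703 FPKM in KO against 18.67 and 19.28 FPKM in WT (log2 difference −2.52 ± 0.34, limma adjusted p = 0.000856). Cdk2, its kinase partner, was at the floor in KO and at 5.816 and 4.199 FPKM in WT (−1.57, adjusted p = 0.00574). Cstf1, Ncbp1 and Cdk9 were lower too, by −1.82, −1.74 and −1.12. Of the chaperones, Npm2, the oocyte nucleoplasmin, measured 58.99 and 55.94 FPKM in KO against 17.89 and 17.91 in WT (1.63 ± 0.15, adjusted p = 0.000111), and Asf1a, an H3-H4 chaperone, was higher as well (1.28 ± 0.26, adjusted p = 0.00727). Cenpa, the centromeric H3 variant, was at 7.418 and 9.926 FPKM in KO against 25.62 and 23.39 in WT (−1.41 ± 0.21, adjusted p = 0.00149), and Nasp and Set, which bind histones, were lower (−1.27 and −1.04). All 10 were called in the same direction before the factor.

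Markers of other cells were read from the same libraries. Of 15 cumulus and granulosa markers 5 were in the table and summed to at most 86.43 FPKM in any oocyte library, mostly Esr2 and Cyp19a1, with Fshr at most 2.384 FPKM. Of 9 sperm markers 3 were in the table and of 10 blood and immune markers 6, summing to at most 73.14 and 21.14 FPKM in any library. In 2-cell embryos the 3 sums were at most 6.065, 3.735 and 8.021 FPKM, where a list wholly at the floor sums to 5, 3 and 6. Their part in the histone results was not tested.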

How the data were processed

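Polyadenylated RNA of 12 mouse libraries in 6 groups of 2 was analysed from 1 table of FPKM values that the authors deposited, with 1 column per library. The submitters' processing notes name the tools TopHat2 2.1.1 and Cufflinks 2.2.1 and the build mm9. ERCC spike-in RNA was added at lysis, per the labels' protocols. The table had 11298 complete entries in alphabetical order, and 1 incomplete last entry was left out. As FPKM give no read counts, library depth is unknown, and values carry no counting intervals. The library factors were recovered from the digits: at a tolerance of 0.01, 100% of the values over the floor equalled a 6-digit FPKM times a 9-decimal factor. Values before the factor are deposited values divided by it, with the highest floor of the contrast's libraries applied to all of them.

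log2(FPKM + 1) was fitted with limma 3.58.1 in R 4.3.3, all 12 libraries in 1 fit, with an intensity trend and no block, and tested on simulated data first. Tests were two-sided, with Benjamini-Hochberg adjustment over all genes of a contrast and calls at an adjusted p under 0.05. On this scale the change of low genes is understated. Values after ± are SD for FPKM and SE for log2 differences. KO was compared with WT at every stage. Further comparisons were WT 1-cell against GV, WT 2-cell against 1-cell, and the differences of KO effects between adjacent stages.

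Members with a group mean of at least 20 FPKM, or called in a KO comparison with a log2 difference of at least 1, were described singly, and other members by counts or, in counts of 5 or fewer, by name. Hist1h4c, Hist1h2ba, H2afj and the identical pairs were named after their values were seen. Of the 2 lists of other genes, up to 5 per list with the largest 2-cell KO differences of at least 1 were named. The members and lists were chosen with earlier results of these data known. Alternatives were FPKM before the factor, quantile normalization, a pseudocount of 0.1, a mean of at least 5 FPKM, fitting the libraries of the contrast alone, a replicate block, and leaving out each library. Sequences came from GENCODE M21 transcripts and RefSeq promoter windows and were searched with Python 3.11.15.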

Additional observations from a re-analysis of the deposited data

Results flagged for a closer look

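The effect of the KO differed between stages for several histone genes, tested as the difference of KO minus WT log2 differences in limma. Between GV oocytes and 1-cell embryos 11 of 36 members had a KO effect called higher at the 1-cell stage (38.7% of all genes) and 2 called lower (0.859%), and before the factor 1 and 0 (4.04% and 0.823%). Of the members described singly, Hist1h2bc differed by 5.20 (adjusted p = 0.000242), H3f3a by 2.35 (adjusted p = 0.00225), H1foo by 2.09 (adjusted p = 0.006), Hist1h1a by 1.48 (adjusted p = 0.0142), H3f3b by 1.38 (adjusted p = 0.00836) and Hist1h2aa by 0.81 (adjusted p = 0.0234). The 1 call before the factor was Hist1h2bc (4.48). The call of Hist1h1a was lost without WT GV replicate 1 (1.40, adjusted p = 0.0548) or WT 1-cell replicate 2 (1.34, adjusted p = 0.0585), and that of Hist1h2aa without WT GV replicate 2 (0.78, adjusted p = 0.0507), WT 1-cell replicate 2 (0.78, adjusted p = 0.0737) or KO 1-cell replicate 2 (0.80, adjusted p = 0.0522).

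Between the 1-cell and 2-cell stage the KO effect fell for H2afv (−3.13, limma adjusted p = 3.34e-05), H2afz (−2.72, adjusted p = 0.00375), H1foo (−2.17, adjusted p = 0.00329), Hist1h2bc (−1.41, adjusted p = 0.0278), H3f3b (−1.38, adjusted p = 0.00625) and H3f3a (−1.14, adjusted p = 0.0309). Before the factor H2afv (−3.03) and H2afz (−1.86) were still called, as was H2afj, and H1foo (−1.22, adjusted p = 0.0967), H3f3b (−0.42, adjusted p = 0.104), H3f3a (−0.17, adjusted p = 1) and Hist1h2bc (−0.01, adjusted p = 1) were not. The call of Hist1h2bc was lost without KO 1-cell replicate 2 (−1.34, adjusted p = 0.0847), WT 2-cell replicate 1 (−1.41, adjusted p = 0.0861) or 2 (−1.41, adjusted p = 0.0984), or KO 2-cell replicate 1 (−1.19, adjusted p = 0.101). The call of H3f3a was lost without WT 1-cell replicate 2 (−0.90, adjusted p = 0.1), KO 1-cell replicate 1 (−1.14, adjusted p = 0.0504) or 2 (−1.13, adjusted p = 0.0797), WT 2-cell replicate 1 (−1.14, adjusted p = 0.0845) or 2 (−1.14, adjusted p = 0.0971), or KO 2-cell replicate 1 (−0.80, adjusted p = 0.0879).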

How the results depend on the processing

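Counts moved most at the 1-cell stage. Values before the factor differ from the deposited ones in the factor and in the common floor. Libraries outside a contrast that had a higher floor kept their own, unequal floors, which entered the spread of the fit. In place of 12 members higher and 0 lower in KO 1-cell embryos there were 3 and 2 before the factor and 4 and 11 with quantile normalization, and 3 higher with the contrast's libraries fitted alone. In oocytes the 1 higher call fell to 0 before the factor, with quantile normalization, a pseudocount of 0.1, a mean of at least 5 FPKM, the contrast's libraries alone and the replicate block, and the 1 lower call fell to 0 under the same settings other than the pseudocount and the block. In KO 2-cell embryos the 4 higher became 9 with quantile normalization and 2 with the contrast's libraries alone, where the 3 lower became 1. From WT GV to 1-cell the 23 lower became 10 before the factor, 10 with quantile normalization and 10 with a mean of at least 5 FPKM, and the 1 higher became 5, 12 and 0, and 0 with the contrast's libraries alone. For the KO effect at the 1-cell minus the GV stage the 11 higher became 1 before the factor and 2 with quantile normalization, and the 2 lower became 0 and 4, 0 with a mean of at least 5 FPKM and 1 with the contrast's libraries alone. For the 2-cell minus the 1-cell stage the 0 higher became 2 and 17 and the 8 lower 3 and 3. The causes were not tested, except that a filter leaves fewer genes, and that quantile normalization gives different values to genes tied at the floor: 7 of 10 members at the floor in all 4 1-cell libraries and 2 of 21 in 2-cell libraries were called after it.

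Directions that turned were those of H2afv in KO 1-cell embryos (−0.14 before the factor, −0.18 with quantile normalization), H3f3b there (−0.011 with quantile normalization), H3f3b from WT GV to 1-cell (0.48 and 0.87), Hist1h2aa there (0.15 with quantile normalization), H3f3a from WT 1-cell to 2-cell (0.15 with quantile normalization), Hist1h2aa in the 1-cell minus GV effect (−0.14 and −0.27) and Hist1h2bc in the 2-cell minus 1-cell effect (1.17 with quantile normalization, limma adjusted p = 0.0202). Leaving out each library in turn gave 1 to 4 higher and 1 to 2 lower in KO oocytes, 8 to 14 and 0 to 0 in KO 1-cell, 2 to 4 and 2 to 3 in KO 2-cell embryos, 0 to 1 and 20 to 24 for WT GV to 1-cell, 3 to 3 and 5 to 7 for WT 1-cell to 2-cell, 7 to 12 and 0 to 4 for the 1-cell minus GV effect, and 0 to 1 and 6 to 10 for the 2-cell minus 1-cell effect. The labels do not say that a replicate number marks a shared source, and deviations of same-numbered libraries correlated at −0.248 to 0.166, so the numbers were not taken as pairs. With the replicate block 0 and 1 members were called higher and lower in KO oocytes, 11 and 0 in KO 1-cell, 4 and 3 in KO 2-cell embryos, 1 and 23 for WT GV to 1-cell and 3 and 7 for WT 1-cell to 2-cell. The calls of Hist4h4 in KO oocytes (limma adjusted p = 0.0641) and Hist1h4h in KO 1-cell embryos (adjusted p = 0.0536) were lost with it. Crossing the KO 2-cell numbers, chosen after seeing the data, gave 4 and 3. Summed histone FPKM before the factor were 2800 in WT and 5533 in KO 1-cell and 2124 and 2300 in 2-cell embryos.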
